A study of Mus musculus with 18 samples.

Results

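The sarcomeric myosin heavy chain genes analysed here were Myh3, Myh8, Myh1, Myh2, Myh4, Myh7 and Myh7b, 7 of the 50600 gene identifiers in each deposited table, taken by symbol. They were followed in stable lines made from C2C12, a mouse myoblast cell line whose cells stop dividing and form multinucleated myotubes once serum is lowered. The ERK3-depleted line had been transfected with px459-Mapk6sg, the MK5-depleted line with px459-Mk5sg, and the control line with a control plasmid. px459 is a plasmid that carries Cas9 and a guide RNA. Mapk6 encodes ERK3, an atypical MAP kinase, and Mapkapk5 encodes MK5, a protein kinase that binds ERK3. Each line was sampled after 2 days in differentiation medium (DM2) and in growth medium (GM), with 3 libraries in each of the 6 groups. All groups share the C2C12 background, and the labels do not say whether the 3 libraries of a group came from separate cultures or clones, so p-values measure only the spread between these libraries. As RNA was taken from whole cultures, fewer differentiated cells and less RNA per cell cannot be told apart.

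Myosin heavy chains are the motor proteins of the thick filament, and each muscle fibre is typed by the heavy chain it holds. Myh3 encodes the embryonic chain and Myh8 the perinatal chain, both used in developing and regenerating muscle. Myh2, Myh1 and Myh4 encode the fast chains of adult type IIA, IIX and IIB fibres. Myh7 encodes the slow chain of type I fibres, which is also the beta chain of the heart, and Myh7b encodes a distant relative whose gene carries the microRNA Mir499. On GRCm38, with GENCODE M21 positions, 5 members lie on the plus strand of 1 cluster, Myh3 at chr11:67078300-67102291, Myh2 at chr11:67171027-67197517, Myh1 at chr11:67200052-67224575, Myh4 at chr11:67238029-67260446 and Myh8 at chr11:67277124-67308634. Myh7 lies at chr14:54970684-54994626 on the minus strand, and Myh7b at chr2:155611212-155634307 on the plus strand.

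The promoters of the cluster are shown because 5 of the 7 members lie in it, and all 5 were called higher at DM2 than in GM in the control line. The stretches hold the 170 bases before the RefSeq start of each gene (GRCm38.p6, plus strand), at chr11:67078130-67078299 for Myh3, chr11:67276954-67277123 for Myh8, chr11:67199932-67200101 for Myh1, chr11:67170857-67171026 for Myh2 and chr11:67237642-67237811 for Myh4. Capitals mark those of the matches described after them that lie within these stretches.
Myh3: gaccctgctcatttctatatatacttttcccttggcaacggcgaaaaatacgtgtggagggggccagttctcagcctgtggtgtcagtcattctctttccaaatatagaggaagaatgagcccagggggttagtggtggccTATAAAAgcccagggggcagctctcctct
Myh8: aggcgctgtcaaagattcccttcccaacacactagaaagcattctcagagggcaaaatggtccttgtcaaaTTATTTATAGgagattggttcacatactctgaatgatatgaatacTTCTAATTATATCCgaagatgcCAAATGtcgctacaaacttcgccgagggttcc
Myh1: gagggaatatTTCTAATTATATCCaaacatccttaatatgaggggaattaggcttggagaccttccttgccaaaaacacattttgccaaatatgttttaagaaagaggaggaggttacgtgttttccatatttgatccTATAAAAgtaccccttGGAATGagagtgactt
Myh2: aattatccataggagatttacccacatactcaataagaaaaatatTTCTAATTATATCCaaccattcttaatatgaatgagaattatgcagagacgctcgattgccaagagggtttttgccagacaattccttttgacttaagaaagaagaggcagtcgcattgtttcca
Myh4: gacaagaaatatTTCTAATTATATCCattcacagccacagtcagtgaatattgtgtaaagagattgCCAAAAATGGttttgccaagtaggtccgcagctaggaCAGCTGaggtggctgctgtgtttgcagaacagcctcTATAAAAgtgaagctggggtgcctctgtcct

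Myh8, Myh1, Myh2 and Myh4 shared the 14-base run TTCTAATTATATCC, which begins 54, 160, 125 and 158 bases before their starts. It was found in 4 of the 32851 RefSeq promoter windows of 250 bases, which is 0.0122%, and these 4 are the ones shown. The run was picked as the longest one common to these 4 windows, so its presence in them was fixed in advance. Its share of all windows is therefore not comparable with the shares of the motifs named next. The TATAAAA box stood 29, 32 and 31 bases before the starts of Myh3, Myh1 and Myh4, and 4.98% of all windows held it. An E-box, the CANNTG letters read by MyoD and its relatives, was in 6 of the 8 member windows and in 66.2% of all windows. The MEF2 motif was in the windows of Myh8, Myh1 and Myh4 (2.92% of all windows), and the CArG box read by serum response factor in that of Myh4 (1.47%). The M-CAT element CATTCC, read by TEAD factors, was in 3 of 8 member windows (12.6% of all), and the MEF3 letters TCAGGTT were in 0 (3.49% of all). Both strands were searched and no marked match overlaps another. All 7 symbols matched the RefSeq table, Myh7 with a pair of starts. These are matches of letters only.

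The coding sequences are near copies of each other in places, which bears on every count below. The stretch shown is the 120-base piece that begins at coding base 2918 of Myh1 (GENCODE M21 transcripts, exons joined across an intron), with the matching pieces of the other members. Capitals mark bases that differ from Myh1. It lies at chr11:67213426-67213656 in Myh1, chr11:67188525-67188755 in Myh2, chr11:67251923-67252275 in Myh4, chr11:67297309-67297539 in Myh8, chr11:67092548-67093230 in Myh3, chr14:54983325-54983568 in Myh7 (minus strand) and chr2:155627789-155628586 in Myh7b.
Myh1: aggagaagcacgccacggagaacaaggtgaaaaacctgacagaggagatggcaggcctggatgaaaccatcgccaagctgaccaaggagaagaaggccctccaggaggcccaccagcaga
Myh2: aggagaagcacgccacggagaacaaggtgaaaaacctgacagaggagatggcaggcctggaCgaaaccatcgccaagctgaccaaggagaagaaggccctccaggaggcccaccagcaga
Myh4: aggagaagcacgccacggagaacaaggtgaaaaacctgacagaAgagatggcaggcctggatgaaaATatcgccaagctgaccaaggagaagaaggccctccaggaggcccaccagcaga
Myh8: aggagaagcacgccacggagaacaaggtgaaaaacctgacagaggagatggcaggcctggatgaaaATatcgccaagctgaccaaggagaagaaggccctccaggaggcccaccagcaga
Myh3: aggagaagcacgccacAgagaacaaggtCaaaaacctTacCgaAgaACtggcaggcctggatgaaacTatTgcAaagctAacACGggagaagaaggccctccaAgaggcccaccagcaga
Myh7: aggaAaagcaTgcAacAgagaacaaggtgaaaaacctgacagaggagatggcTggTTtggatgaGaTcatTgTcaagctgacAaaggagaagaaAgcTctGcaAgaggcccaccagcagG
Myh7b: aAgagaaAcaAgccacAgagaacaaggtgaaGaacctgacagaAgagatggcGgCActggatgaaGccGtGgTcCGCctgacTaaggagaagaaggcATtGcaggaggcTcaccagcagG

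Relative to Myh1, the piece differed at 1 base in Myh2, 2 in Myh8, 3 in Myh4, 15 in Myh3, 17 in Myh7 and 22 in Myh7b. Over the whole coding sequence Myh1 and Myh2 were 90.9% identical, with an identical run of 268 bases. Myh7 was 91.7% identical to Myh6, the alpha chain of the heart, with an identical run of 245 bases. Windows of 84 bases, the mean length behind RSEM's effective lengths, were used to ask how much of each transcript recurs in another gene. The shared part was 14.1% for Myh1 (10.9% with Myh2), 13.6% for Myh2, 14% for Myh7 (all with Myh6), 10.1% for Myh8, 6.96% for Myh4, 1.47% for Myh3 and 0 for Myh7b.

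The effect on the values was read by comparing both kinds of deposited table. Reads mapping to 1 place are counted in the gene count tables, while RSEM shares out reads that map to several places. Summed over the 18 libraries, the RSEM expected count over the unique reads was 0.98 for Myh3, 1.07 for Myh8, 1.16 for Myh1, 1.2 for Myh2, 0.972 for Myh4, 1.29 for Myh7 and 0.887 for Myh7b. The median over the 14115 genes with enough reads was 0.942, and 5 to 95% of them lay between 0.761 and 1.92. All members were within that range, and the ratio was above 1.1 for Myh1, Myh2 and Myh7, the members with most shared sequence. Between groups at DM2 the Myh1 ratio was 1.15 in ERK3-depleted cells, 1.18 in MK5-depleted cells and 1.15 in control cells. The Myh7 ratio was 1.34 in ERK3-depleted, 1.3 in MK5-depleted and 1.2 in control cells, so the 2 counts of Myh7 differed most in the ERK3-depleted libraries.

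**Figure D1:**
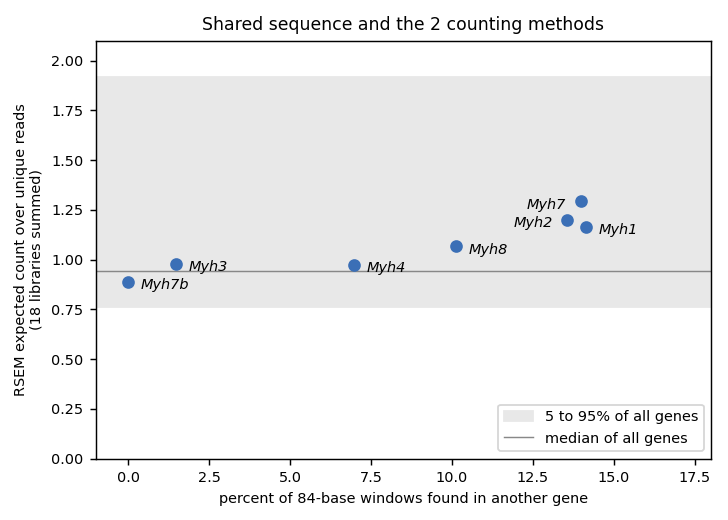
Each point is 1 myosin heavy chain gene, with the percent of its 84-base windows found in another gene on the x axis and the RSEM expected count divided by unique reads, summed over 18 libraries, on the y axis; the grey band is the 5 to 95% range of all genes. Myh7, Myh2 and Myh1, with 13.6 to 14.1% of shared windows, had the highest ratios (1.29, 1.2 and 1.16), and every member lay inside the band.

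The libraries held 23.6 to 31.2 M reads, of which 17.5 to 23.4 M were counted on the sense strand of genes. Levels are given as CPM, counts per M of these reads with the libraries scaled by TMM. At DM2 the depleted libraries stood apart from control. Reads outside genes were 5.55, 7.73 and 3.79% of all reads in ERK3-depleted cells and 3.96, 4.11 and 2.84% in MK5-depleted cells, against 2.44, 2.65 and 3.05% in control cells. Results at DM2 are therefore also given without the 4 DM2 libraries that had most reads outside genes (replicates 1 and 2 of both depleted lines), which leaves 1 library in each depleted group, assumed to vary like the others. Mapk6 was at 96.8 to 136 CPM in ERK3-depleted cells and 204 to 219 CPM in control cells at DM2 (log2 fold change -0.86, edgeR adjusted p = 2.18e-05), but in GM its log2 fold change was -0.15 (edgeR adjusted p = 0.464). Mapkapk5 was low everywhere, at 0.601 to 0.947 CPM in MK5-depleted cells and 1.02 to 1.55 CPM in control cells at DM2 (log2 fold change -0.68, edgeR adjusted p = 0.0443). Lower levels at DM2 were not shown to be particular to the targeted line: Mapk6 was also called lower in MK5-depleted than control cells (log2 fold change -0.40, edgeR adjusted p = 0.0115), and Mapkapk5 was at 0.723 to 1.05 CPM in ERK3-depleted cells (log2 fold change -0.57 against control, edgeR adjusted p = 0.0751). The depleted lines did not pass the test against each other for either gene (edgeR adjusted p = 0.137 for Mapk6 and 0.868 for Mapkapk5). In GM Mapkapk5 had a log2 fold change of -0.55 (edgeR adjusted p = 0.232), so neither targeted transcript was called lower there. Of the skeletal muscle markers examined all 9 were detected, whereas endothelial markers summed to at most 0.21 TPM. Of 7 cardiac markers Nppa, Tbx5 and Myl7 had at most 1 read in a library, but Gata4 had 190 to 355 reads and Nkx2-5 45 to 158.

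In control cells the embryonic gene Myh3 gave most of the RNA of the 7 members after 2 days of differentiation. Myh3 reached 411, 396 and 437 CPM in DM2 libraries, against 8.21, 4.52 and 5.46 CPM in GM libraries. This is a log2 fold change of 6.11 ± 0.45 (SE, n = 3 libraries each, edgeR quasi-likelihood test, adjusted p = 5.08e-08). Myh1 had 41.5, 33.4 and 40.2 CPM at DM2, against 2.72, 1.54 and 1.05 CPM in GM (log2 fold change 4.45 ± 0.33, edgeR adjusted p = 8.27e-09). Myh7 had 7.15, 7.61 and 8.85 CPM at DM2, against 2.24, 1.62 and 1.55 CPM in GM (log2 fold change 2.13 ± 0.24, edgeR adjusted p = 1.15e-06). In each of these genes every DM2 library lay above every GM library.

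The other 4 members were scarce in GM. Myh8 had 33 to 59 reads per control library at DM2 and 1 to 6 in GM, Myh4 had 13 to 24 and 0 to 2, Myh2 had 21 to 27 and 1 to 3, and Myh7b had 11 to 16 and 1 to 6. Their log2 fold changes in control cells were 3.95 ± 0.61 for Myh8, 3.86 ± 0.82 for Myh4, 3.23 ± 0.44 for Myh2 and 2.03 ± 0.51 for Myh7b, with edgeR adjusted p between 9.69e-06 and 0.00343. The edgeR test called 7 of 7 members higher in the control line, where 45.6% of the 13939 genes tested were called, 22.5% higher and 23.1% lower. Myh2, Myh4 and Myh7b passed the filter on low counts through DM2 libraries alone, and Myh8 through 9 DM2 libraries and 1 GM library, so their count is a description. Myh3, Myh1 and Myh7 passed in all 18 libraries.

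**Figure D2:**
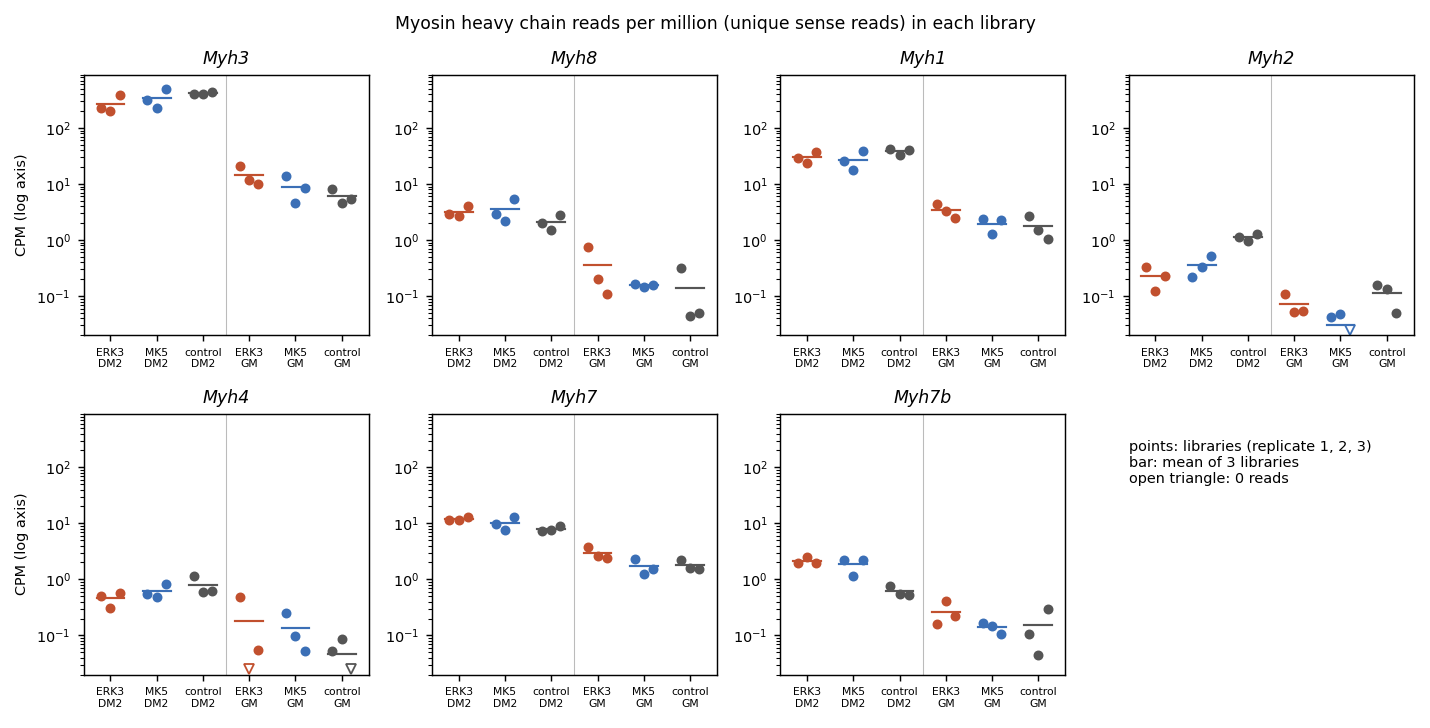
CPM (log axis) of each myosin heavy chain gene in each of 18 libraries; points are libraries in replicate order, bars are means of 3 and open triangles are libraries with 0 reads. Myh3 is the highest gene in every group, Myh2 is lower in both depleted lines than in control cells at DM2, and Myh7b is higher.

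All 3 lines raised sarcomeric myosin heavy chain RNA on differentiation. In ERK3-depleted cells Myh3 had 224, 198 and 384 CPM at DM2, against 20.9, 12 and 10.1 CPM in GM (log2 fold change 4.23 ± 0.41, edgeR adjusted p = 9.4e-07). In MK5-depleted cells it had 322, 229 and 491 CPM at DM2, against 14, 4.61 and 8.33 CPM in GM (log2 fold change 5.26 ± 0.43, edgeR adjusted p = 1.76e-07). DM2 and GM libraries did not overlap in either line. Among the others, log2 fold changes in ERK3-depleted cells were 3.16 for Myh8, 3.14 for Myh1, 2.97 for Myh7b, 2.01 for Myh7, 1.62 for Myh2 and 1.35 for Myh4. In MK5-depleted cells the same changes were 4.43 for Myh8, 3.79 for Myh1, 3.65 for Myh7b, 3.28 for Myh2, 2.54 for Myh7 and 2.11 for Myh4. The edgeR test called 6 members higher in ERK3-depleted cells (55.1% of all genes called, 28.9% higher and 26.2% lower), all but Myh4 (adjusted p = 0.126), and 7 in MK5-depleted cells (49.3% of all genes called, 24.6% higher and 24.8% lower). In ERK3-depleted cells Myh2 was just past the threshold (edgeR adjusted p = 0.0482) on 6, 2 and 4 reads at DM2 and 2, 1 and 1 reads in GM, and the call was lost without replicate 1 or 3 of the DM2 libraries and without replicate 2 or 3 of the GM libraries (adjusted p = 0.0756 to 0.218), and with the replicate number as a block (0.055). With RSEM expected counts the Myh2 log2 fold change was 0.99 (edgeR adjusted p = 0.171), with unstranded counts 0.97 (0.253), with no filter 1.60 (0.149), without the 4 DM2 libraries 1.60 (0.209) and with DESeq2 1.70 (adjusted p = 0.113). Myh4 in that line was at 9, 5 and 10 reads at DM2 and 9, 0 and 1 reads in GM, so replicate 1 in GM lay within the DM2 range, and without it the log2 fold change was 3.84 (edgeR adjusted p = 0.00376). In MK5-depleted cells the call of Myh4 was lost without GM replicate 2 or 3 or DM2 replicate 3 (edgeR adjusted p = 0.0598 to 0.0726).

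The size of the rise in Myh3 and Myh1 differed between the ERK3-depleted and control lines. The response of ERK3-depleted cells minus that of control cells was -1.88 ± 0.55 on the log2 scale for Myh3 (edgeR interaction test, adjusted p = 0.022) and -1.31 ± 0.46 for Myh1 (adjusted p = 0.0405). These were 2 of 7 members, where 28.6% of all genes were called and 14% were called lower. More of each difference came from GM than from DM2. ERK3-depleted minus control cells differed by 1.25 in GM and -0.63 at DM2 for Myh3, and by 0.96 in GM and -0.35 at DM2 for Myh1, none of which was called by itself. In GM, Myh3 had 20.9, 12 and 10.1 CPM in ERK3-depleted libraries, all above the 8.21, 4.52 and 5.46 CPM of control libraries, while Myh1 had 4.4, 3.28 and 2.52 CPM in ERK3-depleted libraries, overlapping the 2.72, 1.54 and 1.05 CPM of control libraries. Without the 4 DM2 libraries the differences were -1.39 for Myh3 (edgeR adjusted p = 0.224) and -1.02 for Myh1 (0.162). With the outside-gene share of reads entered as a covariate they were -1.09 (edgeR adjusted p = 0.336) and -0.69 (0.434), so both calls ended under either setting. They also ended when ERK3-depleted GM replicate 1, control GM replicate 2, or ERK3-depleted DM2 replicate 1 or 2 was left out, and that of Myh1 also without ERK3-depleted GM replicate 2, control GM replicate 3 or control DM2 replicate 1 or 3. Adjusted p under these ran between 0.0547 and 0.123, and limma-voom gave Myh1 -1.38 (adjusted p = 0.0653). For MK5-depleted cells the same difference was -0.85 ± 0.56 for Myh3 (edgeR adjusted p = 0.295), -0.66 ± 0.48 for Myh1 (0.34) and 1.63 ± 0.78 for Myh7b (0.147), and 0 members passed, where 18% of all genes were called (8.54% higher and 9.48% lower). The count was also 0 at an unadjusted p under 0.05, with DESeq2 (3058 of all genes called) and with limma-voom (2642).

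In growth medium no member passed the edgeR test between a depleted line and control, where 6.79% of all genes were called for ERK3 (3.72% higher and 3.06% lower) and 8.45% for MK5 (4.71% higher and 3.74% lower). Myh3 averaged 14.3 ± 5.72 CPM in ERK3-depleted cells, 8.99 ± 4.74 CPM in MK5-depleted cells and 6.06 ± 1.92 CPM in control cells (SD, n = 3 each). ERK3-depleted libraries were all above control libraries for Myh3 (log2 fold change 1.25 ± 0.43, edgeR adjusted p = 0.0925) and Myh7 (0.71 ± 0.26, adjusted p = 0.105). Myh1 had a log2 fold change of 0.96 ± 0.38 (edgeR adjusted p = 0.132) with overlapping libraries. These 3 had unadjusted edgeR p of 0.0111, 0.0142 and 0.0219. DESeq2 called 2 members, where it called 1508 of the 13939 genes tested, and limma-voom 0, where it called 992. In MK5-depleted cells the adjusted edgeR p of the members ran between 0.273 and 0.977, with 0 at an unadjusted p under 0.05 and 0 called by DESeq2 or limma-voom. Over all genes tested DESeq2 called 1572 and limma-voom 1318 there.

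At DM2 the embryonic gene and the adult fast gene Myh1 were not called different in either depleted line. Myh3 was at 224, 198 and 384 CPM in ERK3-depleted cells and 322, 229 and 491 CPM in MK5-depleted cells, against 411, 396 and 437 CPM in control cells. All ERK3-depleted libraries were below the control libraries, and replicate 3 of the MK5-depleted line was above them. The log2 fold change was -0.63 ± 0.35 for ERK3 (edgeR adjusted p = 0.138) and -0.26 ± 0.35 for MK5 (adjusted p = 0.567). Without the 4 libraries these were -0.12 and 0.25, with the covariate the ERK3 value was 0.24, and without ERK3-depleted replicate 3 the ERK3 value was -0.99 (edgeR adjusted p = 0.04). Myh1 was at 29.3, 23.8 and 37.2 CPM in ERK3-depleted cells and 25.4, 17.7 and 38.8 CPM in MK5-depleted cells, against 41.5, 33.4 and 40.2 CPM in control cells, with overlap in both comparisons. Its log2 fold change was -0.35 ± 0.25 for ERK3 (edgeR adjusted p = 0.247) and -0.49 ± 0.25 for MK5 (adjusted p = 0.12). Without the 4 libraries these were -0.05 and 0.03, and with the covariate the ERK3 value was 0.34. For MK5 it was -0.85 without MK5-depleted replicate 3 (edgeR adjusted p = 0.0113) and was called by limma-voom (-0.55, adjusted p = 0.0409), so the direction of neither gene held under every setting. Summed TPM of the 9 skeletal muscle markers was 1498 to 2676 in ERK3-depleted, 1969 to 3117 in MK5-depleted and 3253 to 3540 in control cells. Within that sum Des went the other way, averaging 761 TPM in ERK3-depleted, 828 in MK5-depleted and 660 in control cells. The sum of 5 fibroblast markers was 587 to 1544 TPM in ERK3-depleted, 1203 to 2112 TPM in MK5-depleted and 2431 to 3125 TPM in control cells. Col3a1 made up most of it (2785 TPM in control cells), while Pi16 averaged 3.86 TPM in ERK3-depleted, 4.36 in MK5-depleted and 3.62 in control cells. These sums carry the shift of TPM between lines that is given with the isoform mix. The sum of 5 smooth muscle markers was 3575 to 5972 TPM in ERK3-depleted, 5292 to 7779 TPM in MK5-depleted and 6536 to 7335 TPM in control cells, and the defining marker Myh11 had at most 5 reads in a library. The part of these in the result was not tested.

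Myh2, the adult IIA chain, was lower in both depleted lines at DM2. It had 6, 2 and 4 reads in ERK3-depleted libraries and 4, 6 and 10 reads in MK5-depleted libraries, against 23, 21 and 27 reads in control libraries. No depleted library reached the lowest control library. The log2 fold change was -2.25 ± 0.40 for ERK3 (edgeR adjusted p = 0.000156) and -1.63 ± 0.36 for MK5 (adjusted p = 0.00167). Myh2 passed the filter through 3 control DM2 libraries and 1 MK5-depleted library, so mostly through the group where it was high, and its calls are a description. With no filter the values were -2.29 for ERK3 and -1.64 for MK5. That fit called 1331 genes between the depleted lines at DM2, where the main fit called 0, so its p-values are not given here. RSEM expected counts, which include reads shared with Myh1, gave -2.37 for ERK3 and -1.54 for MK5, both still called by edgeR, and unstranded counts gave -2.60 and -1.79, also called. Without the 4 libraries the ERK3 value was -2.27 (edgeR adjusted p = 0.0118) and the MK5 value -1.07 (0.104), and with the covariate the ERK3 value was -1.50 (0.121), so each call ended under 1 of these settings.

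Myh7b was higher in both depleted lines at DM2. It had 35, 40 and 34 reads in ERK3-depleted libraries and 40, 21 and 42 reads in MK5-depleted libraries, against 16, 12 and 11 reads in control libraries, with no overlap. The log2 fold change was 1.77 ± 0.35 for ERK3 (edgeR adjusted p = 0.000363) and 1.58 ± 0.35 for MK5 (adjusted p = 0.00155). Myh7b passed the filter through 3 ERK3-depleted, 3 MK5-depleted and 2 control DM2 libraries. That is mostly through the groups where it was high, so its calls are a description. Without the 4 libraries it was 1.64 (edgeR adjusted p = 0.0155) and 1.84 (0.00557), and with the covariate 1.64 (0.0299) and 1.54 (0.00227). No window of Myh7b recurs in another gene. Its counts are per gene and do not part the long coding transcript from the short ones named with the isoform mix. Its neighbour Trpc4ap ends inside the last bases of Myh7b on the other strand, and reads on the strand opposite to Myh7b numbered 68 to 118 in ERK3-depleted, 59 to 77 in MK5-depleted and 28 to 51 in control libraries at DM2, more than the reads of Myh7b itself; their part in the result was not tested.

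The slow gene Myh7 was higher in ERK3-depleted cells at DM2 on sense-strand counts. It was at 11.3, 11.3 and 13.1 CPM in ERK3-depleted cells and 9.56, 7.75 and 13.1 CPM in MK5-depleted cells, against 7.15, 7.61 and 8.85 CPM in control cells. ERK3-depleted libraries were all above control libraries, whereas MK5-depleted libraries overlapped them. The log2 fold change was 0.60 ± 0.20 for ERK3 (edgeR adjusted p = 0.019) and 0.36 ± 0.20 for MK5 (adjusted p = 0.157). For ERK3 it was 0.73 without the 4 libraries (edgeR adjusted p = 0.0416) and 0.76 with RSEM expected counts (0.00601), but the call ended without ERK3-depleted replicate 3 (0.0591), control replicate 1 (0.0704) or control replicate 2 (0.0581). For MK5, leaving out the 4 libraries gave 0.74 (edgeR adjusted p = 0.0337) and removing the trend with length and GC gave 0.52 (0.0456). The sum of 7 cardiac markers was 8.68 to 12.2 TPM in ERK3-depleted, 10.2 to 13.3 TPM in MK5-depleted and 8.8 to 9.53 TPM in control cells at DM2, and 1 of them, Nkx2-5, averaged 5 TPM in ERK3-depleted, 5.52 TPM in MK5-depleted and 2.29 TPM in control cells. Gata4 averaged 4.6 TPM in ERK3-depleted, 5.66 TPM in MK5-depleted and 6.44 TPM in control cells. TPM carries the shift between lines that is given with the isoform mix, and the part of these markers in the Myh7 values was not tested. Myh6, which shares reads with Myh7, moved alongside it at 0.717 TPM in ERK3-depleted, 0.683 TPM in MK5-depleted and 0.423 TPM in control cells at DM2.

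Perinatal Myh8 and adult IIB Myh4 were not called at DM2. Myh8 was at 2.89, 2.73 and 4.05 CPM in ERK3-depleted cells and 2.93, 2.18 and 5.42 CPM in MK5-depleted cells, against 1.98, 1.53 and 2.82 CPM in control cells, with overlap. Its log2 fold change was 0.61 ± 0.39 for ERK3 (edgeR adjusted p = 0.192) and 0.74 ± 0.39 for MK5 (adjusted p = 0.13), and without the 4 libraries the MK5 value was 1.37 (edgeR adjusted p = 0.0277), and removing the length and GC trend also gave a call (1.05, adjusted p = 0.0414) as did the covariate (0.91, 0.05). Myh4 had 9, 5 and 10 reads in ERK3-depleted libraries and 10, 9 and 16 reads in MK5-depleted libraries, against 24, 13 and 13 reads in control libraries. Its CPM did not overlap between ERK3-depleted and control cells and did between MK5-depleted and control cells. The log2 fold change was -0.77 ± 0.56 for ERK3 (edgeR adjusted p = 0.254; 0.32 with the covariate) and -0.33 ± 0.52 for MK5 (adjusted p = 0.634; 0.10 without the 4 libraries). In all, edgeR called 2 members higher and 1 lower in ERK3-depleted cells, where 55.8% of all genes were called (28% higher and 27.8% lower). It called 1 higher and 1 lower in MK5-depleted cells, where 45.1% were called (22.2% higher and 22.9% lower). The members' share of calls is therefore not above that of all genes in either comparison. Between the depleted lines at DM2, edgeR called 0 members and 0% of all genes, 0 members had an unadjusted p under 0.05 or passed with DESeq2 or limma-voom, and Myh2 had a log2 fold change of 0.62 for MK5 over ERK3 (adjusted p = 0.478).

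**Figure D3:**
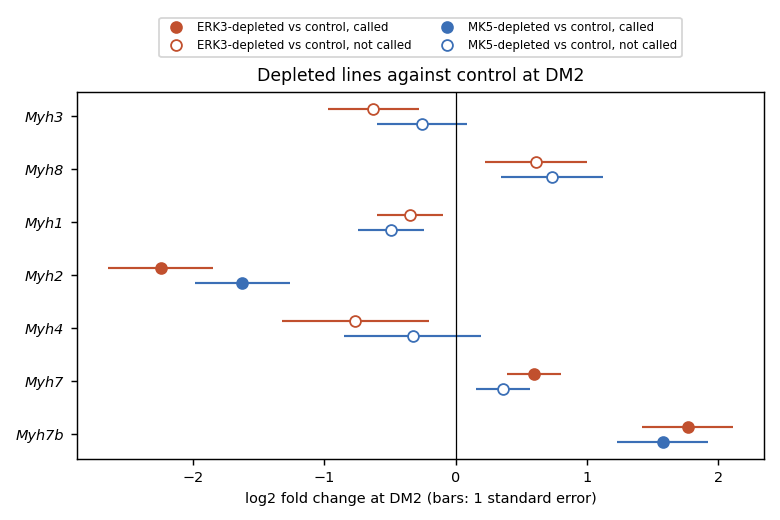
Log2 fold change at DM2 of each myosin heavy chain gene (x axis, with bars of 1 standard error), for ERK3-depleted against control (upper point of each pair) and MK5-depleted against control (lower point), 3 libraries a group; filled points passed the edgeR test at an adjusted p under 0.05. Myh2 is at -2.25 and -1.63, Myh7b at 1.77 and 1.58, and Myh7 is filled for ERK3 alone at 0.60, while Myh7 did not pass the test between the 2 depleted lines (edgeR adjusted p = 0.519).

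Strand-specific counting mattered for Myh1 and Myh7. Exons of the antisense gene Myhas cover 435 of the 5938 bases of the Myh1 transcript (7.33%), among them bases 5760 to 5938 at the 3′ end. Exons of the antisense genes Mhrt and Gm29015 and of Gm17428 cover 605 of the 6135 bases of Myh7 (9.86%), between bases 4863 and 5975. A count that ignores strand leaves out reads lying in exons of both genes and takes in reads of either strand elsewhere, so the unstranded count falls short of the sense-strand count where many sense reads lie in those exons. For Myh1 at DM2 the unstranded count was 53.3, 49.6 and 73.2% of the sense count in ERK3-depleted cells and 70.8, 69.4 and 77.9% in MK5-depleted cells, against 92.5, 90.3 and 90.6% in control cells. For Myh7 it was 59.1, 57.1 and 65.2% in ERK3-depleted cells and 59, 64.1 and 69.4% in MK5-depleted cells, against 93.2, 87.2 and 78.4% in control cells. In both genes every depleted library lay below every control library at DM2. The share of all genes with such a gap was not counted, so the gap was not shown to be particular to these genes. In GM the Myh1 values were 90.2 to 93.5% in ERK3-depleted, 79.1 to 94.6% in MK5-depleted and 85.7 to 90.5% in control cells, which overlap. The Myh7 values in GM overlapped too, at 73.2 to 88.4% in ERK3-depleted, 65.4 to 93.1% in MK5-depleted and 71 to 88.1% in control cells. For Myh3, with no annotated antisense gene, the unstranded count was 104 to 106.5% of the sense count in ERK3-depleted cells, 104.1 to 108% in MK5-depleted cells and 103.8 to 107.6% in control cells at DM2.

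Which reads enter the count changed what was called. With unstranded counts the ERK3 against control difference at DM2 was 0.11 for Myh7 (edgeR adjusted p = 0.707) and -0.93 for Myh1 (0.0177). For MK5 against control it was -0.03 for Myh7 (edgeR adjusted p = 0.937) and -0.78 for Myh1 (0.0485). On unstranded counts, then, Myh1 was called lower in both depleted lines and Myh7 was called in neither. The share of reads outside genes also moved with these values, being highest in the ERK3-depleted libraries 1 and 2, where the Myh1 share was lowest; its part in the result was not tested.

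**Figure D4:**
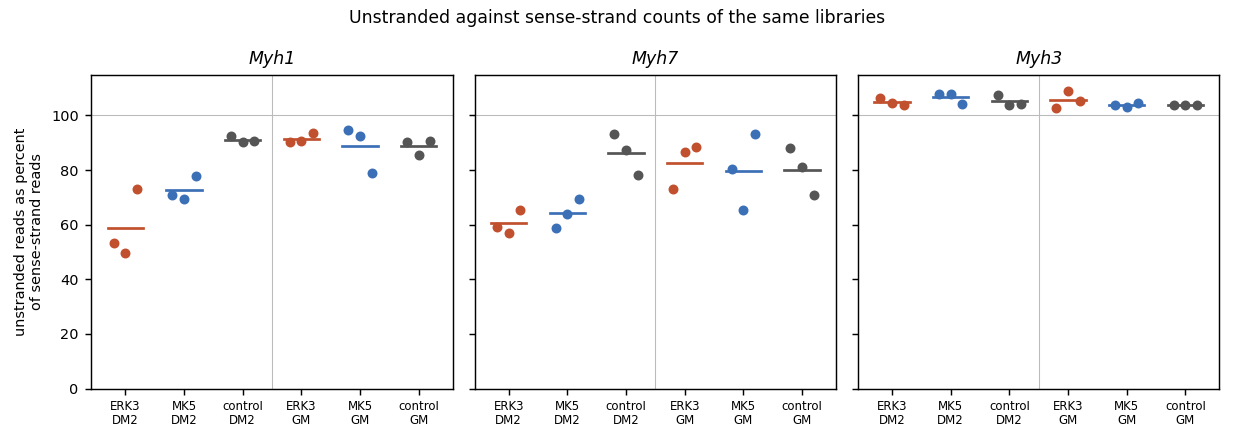
Unstranded reads as a percent of sense-strand reads (y axis, linear) for Myh1, Myh7 and Myh3 in each library; points are libraries, bars are means of 3. At DM2 the depleted libraries of Myh1 (49.6 to 77.9%) and Myh7 (57.1 to 69.4%) lie below the control libraries (90.3 to 92.5% and 78.4 to 93.2%), while Myh3 lies between 103.8 and 108%.

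The isoform mix was read from RSEM TPM, which is per length and can be compared between genes. The 7 members summed to 44.8, 36 and 89.8 TPM in ERK3-depleted cells and 67.2, 48.1 and 118 TPM in MK5-depleted cells, against 116, 109 and 120 TPM in control cells at DM2. In GM the sums were between 1.87 and 6.67 TPM. At DM2 Myh3 made up 80.1 ± 3.94% of the sum in ERK3-depleted cells, 86.4 ± 0.634% in MK5-depleted cells and 86.6 ± 0.979% in control cells (SD, n = 3 each). Myh1 made up 10.9 ± 1.31% in ERK3-depleted cells, 8.13 ± 0.0775% in MK5-depleted cells and 10.2 ± 0.808% in control cells. Myh7 made up 5.08 ± 1.16% in ERK3-depleted cells, 3.31 ± 0.287% in MK5-depleted cells and 2.06 ± 0.0877% in control cells. In GM, where few reads lie behind each value, Myh3 was at 60.2% in ERK3-depleted, 57.5% in MK5-depleted and 53.3% in control cells, and Myh7 at 16.5% in ERK3-depleted, 21.4% in MK5-depleted and 21.4% in control cells.

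The order of levels was Myh3, Myh1, Myh7 in every group at DM2. In control cells Myh3 averaged 99.4 TPM, Myh1 11.7, Myh7 2.36, Myh8 0.58, Myh2 0.327, and Myh4 and Myh7b 0.213 each. The libraries of Myh2 and Myh4 overlapped there, as did those of Myh4 and Myh7b. In ERK3-depleted cells Myh3 averaged 46.3 TPM, Myh1 5.96, Myh7 2.68, Myh7b 1.27, Myh8 0.557, Myh4 0.0733 and Myh2 0.04, with Myh4 and Myh2 meeting at 0.05. In MK5-depleted cells Myh3 averaged 67.2 TPM, Myh1 6.3, Myh7 2.5, Myh7b 0.72, Myh8 0.71, Myh4 0.11 and Myh2 0.0867, with overlap between Myh7b and Myh8 and between Myh4 and Myh2. The place of Myh7b above Myh8 in the depleted lines turned round when unique reads were divided by full transcript length: Myh8 then held 1.02% and Myh7b 0.713% of the sum in ERK3-depleted cells, and Myh8 0.856% and Myh7b 0.471% in MK5-depleted cells. TPM cannot be read as change between lines without its own shift: the median of all genes was -0.46 (ERK3 against control) and -0.29 (MK5 against control) on the log2(TPM + 1) scale at DM2, against 0.01 and 0.00 with TMM. On that scale Myh3 was -1.22 for ERK3 (limma adjusted p = 0.00863) and -0.66 for MK5 (0.148), Myh1 was -0.92 for ERK3 (limma adjusted p = 0.00377) and -0.87 for MK5 (0.00838), and Myh7 was 0.11 for ERK3 and 0.03 for MK5. Myh7 is thus called higher in ERK3-depleted cells relative to other genes after TMM scaling and not on the TPM scale.

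Shares of ERK3-depleted and control libraries at DM2 did not overlap for 6 of 7 members, all but Myh1. TPM levels did not overlap between these groups for 66.2% of all genes tested. Levels and shares are unlike measures, since TPM levels carry the shift between lines and shares do not. The shares of a library also add up to a fixed total, so a smaller Myh3 share leaves larger ones for others and the members are not separate observations. Myh3 and Myh2 had smaller shares in ERK3-depleted cells (differences of -6.52 and -0.21 percentage points), as did Myh4 (-0.0537), whereas Myh7 (3.03), Myh7b (2.6) and Myh8 (0.492) had larger ones. With 3 libraries against 3 the two-sided exact permutation p cannot go below 0.1, which it reached for these 6, or 0.117 after Benjamini-Hochberg adjustment, so none passed 0.05. Against control, MK5-depleted shares did not overlap for 5 members, where TPM levels did not overlap for 60% of all genes, with Myh1 (-2.06) and Myh2 (-0.165) smaller and Myh7 (1.25), Myh7b (0.837) and Myh8 (0.395) larger. Their exact permutation p was 0.1, or 0.14 adjusted, and that of Myh3 was 0.7. Between MK5-depleted and ERK3-depleted cells the shares of Myh3 (6.3), Myh1 (-2.73) and Myh7 (-1.78) did not overlap (exact permutation p = 0.1, adjusted 0.233), where TPM levels did not overlap for 8.62% of all genes. Without the 4 libraries, 1 library is left in each depleted group and no test is made. The ERK3-depleted minus control difference was then -2.02 points for Myh3, 1.80 for Myh7, 0.793 for Myh7b, 0.456 for Myh8, -0.228 for Myh2, -0.0629 for Myh4 and -0.739 for Myh1, so that of Myh1 changed sign (0.662 with all libraries) and those of Myh3, Myh7 and Myh7b were smaller. For MK5-depleted minus control cells it was 0.951 for Myh7, 0.399 for Myh7b, 0.466 for Myh8, -2.09 for Myh1 and -0.182 for Myh2.

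The Myh7b share depends on the transcript lengths RSEM chose. Its effective length was 1111 to 2391 bases in ERK3-depleted cells, 2266 to 2989 in MK5-depleted cells and 3847 to 4374 in control cells at DM2, while the longest transcript has 6163 bases. Annotated short Myh7b transcripts have 667 and 674 bases, and are typed as a processed transcript and a retained intron, not as coding. Which transcripts the Myh7b reads came from was not tested. Its share of TPM was 2.79 ± 1.65% in ERK3-depleted cells, 1.02 ± 0.429% in MK5-depleted cells and 0.187 ± 0.0669% in control cells. With unique reads divided by the full length it was 0.713% in ERK3-depleted, 0.471% in MK5-depleted and 0.129% in control cells, so the order of groups held with a smaller ERK3 value.

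**Figure D5:**
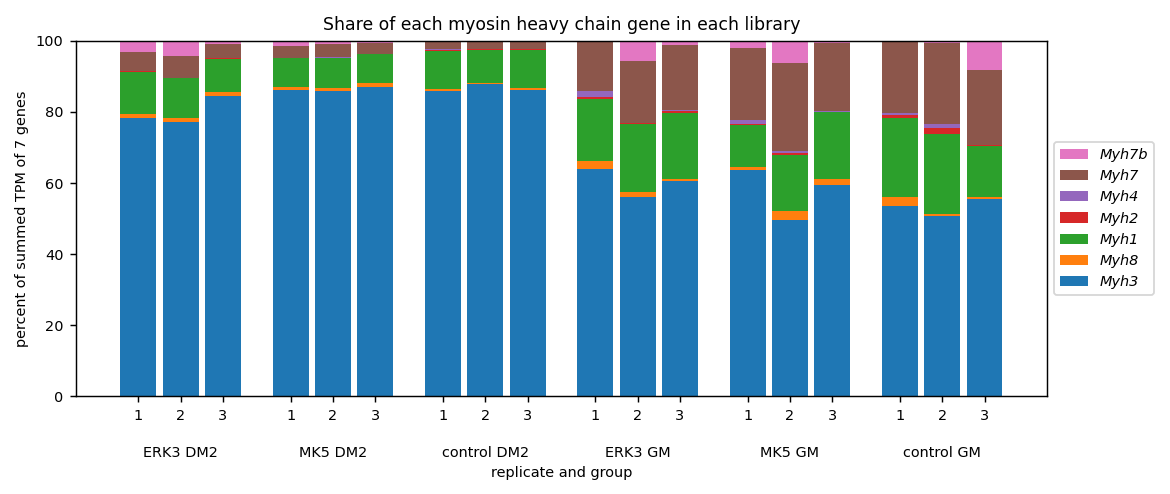
Stacked bars of each gene's percent of the summed TPM of the 7 myosin heavy chain genes (y axis, 0 to 100) in each of 18 libraries, by group and replicate. Myh3 takes 77.2 to 84.6% in ERK3-depleted DM2 libraries, 85.9 to 87.1% in MK5-depleted and 85.9 to 87.7% in control ones, and 49.5 to 63.9% in GM libraries.

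Genes that work with the heavy chains were counted in lists. Of 5 tested light chain and light chain kinase genes, 5 rose in control cells at DM2 against GM, led by Mylpf (log2 fold change 5.05), Myl1 (4.65) and Myl4 (4.58), which encode light chains. Against control at DM2, 1 of the 5 passed in each line, the light chain kinase gene Mylk4, at -1.18 in ERK3-depleted cells and -0.95 in MK5-depleted cells. Of 6 tested thick filament partners, 6 rose in control cells, led by Mybph (5.49), Myom2 (5.12) and titin, Ttn (3.83). Against control at DM2, 4 fell and 1 rose in ERK3-depleted cells, and 3 fell and 1 rose in MK5-depleted cells. Mybpc1, which encodes slow myosin-binding protein C, was at -1.79 for ERK3 and -1.67 for MK5, the M-band gene Myom1 at -1.18 for ERK3 and -1.05 for MK5, and Ttn at 1.31 for ERK3 and 1.02 for MK5. The list medians were -0.90 for ERK3 and -0.83 for MK5, where those of all genes were 0.01 and 0.00.

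Of 7 tested genes for myosin folding, 3 rose and 1 fell in control cells, led by the myosin chaperone Unc45b (5.24) and the methyltransferase Smyd1 (4.06), with Fnip1 at 1.34. Unc45b fell by 1.64 in ERK3-depleted cells and by 1.15 in MK5-depleted cells against control at DM2. In the same comparisons the list had 1 higher and 3 lower for ERK3, with Hsp90aa1 at 1.02 and Fnip1 at -0.48, and 0 higher and 2 lower for MK5, with Fnip1 at -0.87. Of 20 tested regulators of fibre type, 12 rose and 0 fell in control cells, led by Mef2c (4.69), Tead4 (2.90) and Ppargc1a (2.57). Against control at DM2, 4 were higher and 10 lower in ERK3-depleted cells (median -0.18), with Mef2c at 1.41, Tead4 at -1.04 and Nfatc2 at -0.98. In MK5-depleted cells 0 were higher and 11 lower (median -0.37), with Nfatc2 at -0.98, Tead4 at -0.90 and Mef2a at -0.80. Of 3 tested myogenic regulators, Myog (5.29) and Myod1 (1.46) rose in control cells, while against control at DM2 Myf5 was at -0.44 in ERK3-depleted cells and 0 passed in MK5-depleted cells. Of 3 other tested myosin heavy chain genes, Myh6 rose in control cells (1.65) and was higher in ERK3-depleted (1.14) and MK5-depleted cells (0.88) at DM2. These values rest on unique reads, which leave out the reads shared with Myh7. All values in these lists so far are log2 fold changes that passed the edgeR test, and the shares of all genes called were those given above for each comparison.

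Without the 4 DM2 libraries fewer of these list genes passed against control at DM2. Fewer of all genes passed as well in both comparisons, so the loss of calls was not particular to these lists. Thick filament partners had 1 higher and 2 lower in ERK3-depleted cells, with Mybpc1 at -1.67, Myom1 at -0.89 and Ttn higher (edgeR adjusted p = 0.043), and 0 higher and 1 lower in MK5-depleted cells, with Mybpc1 at -1.32. Ttn and Myom1 then missed the threshold for MK5 (edgeR adjusted p = 0.0828 and 0.057). Mylk4 missed it for ERK3 (-0.85, edgeR adjusted p = 0.0619) and MK5 (-0.54, 0.197). Unc45b stayed called for ERK3 (-1.15, edgeR adjusted p = 0.00525) and not for MK5 (-0.57, 0.0898), and Fnip1 stayed called for ERK3 (-0.73) and MK5 (-1.16), while Hsp90aa1 did not pass for ERK3 (0.31, 0.131). Of the regulators 0 were higher and 7 lower for ERK3, with Tead4 at -0.77, and 0 higher and 11 lower for MK5, with Mef2a at -0.85 and Tead4 at -0.43. Mef2c (ERK3, edgeR adjusted p = 0.164), Nfatc2 (0.336 for ERK3 and 0.309 for MK5) and Myf5 (ERK3, 0.268) did not pass, and Myh6 did for ERK3 (1.45, 0.0243) and MK5 (1.31, 0.0347).

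The genes nearest to each member in pattern over the 18 libraries were those with the highest Pearson r of log2 CPM, a likeness set largely by the step between GM and DM2. Myh3 was nearest to Myog (r = 0.999) and Myl4 (0.997), Myh1 to Tnnc1 (0.994) and Chrng (0.993), Myh7 to Mb (0.985) and Tnni2 (0.984), and Myh8 to Tnnt2 (0.982) and Daxx (0.979). The scarcer members were nearest to Plat (0.965) and Ctif (0.96) for Myh2, Acsl6 (0.921) and Tekt5 (0.918) for Myh4, and, among those reported, Fmnl3 (0.969) for Myh7b. Over the 9 DM2 libraries alone, which share depth and line differences, the members fell apart into different patterns. There r was 0.82 between Myh3 and Myh1, 0.88 between Myh8 and Myh7, 0.78 between Myh7 and Myh7b, -0.04 between Myh3 and Myh7, and -0.88 between Myh2 and Myh7b.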

How the data were processed

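RNA of 18 C2C12 libraries was extracted with Trizol and RNeasy columns and made into stranded poly-A libraries with a KAPA kit, per the labels' protocols. The deposited counts are unique reads per gene in unstranded, forward and reverse columns. The reverse column was used here, since it held 92.8 to 95.3% of stranded gene counts, and the forward column gave reads on the opposite strand. The submitters' processing notes name bcl2fastq 2.17, STAR 2.5.1b, RSEM 1.2.28 and GRCm38, and the annotation release is not given in the sources used here. The deposited expected counts, TPM and FPKM come from RSEM, per the file headers, with transcript lengths and other RSEM estimates that the authors deposited beside them; expected counts were rounded before testing. Of 50600 identifiers 50376 matched GENCODE M21. Summary lines (unmapped, multimapping, ambiguous and outside genes) held 21.7 to 35.8% of reads and stayed out of the tests.

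edgeR 4.0.16 (R 4.3.3) tested reverse-strand counts in 1 model with a mean for each of 6 groups (TMM, filterByExpr with 0.527 CPM in 3 libraries, 13939 genes, robust quasi-likelihood test, 12 residual degrees of freedom, biological coefficient of variation 0.11). P-values were adjusted by Benjamini-Hochberg over all genes in each contrast and called under 0.05; the standard error is the log2 fold change over the square root of F. The script was tested on simulated counts. Shares of summed TPM were compared with exact two-sided permutation tests over libraries in scipy 1.17.1, adjusted over the 7 genes of a comparison. Coding sequences were aligned with mafft 7.526.

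All 7 genes were named in every comparison; from each gene list up to 3 called genes with the largest fold change were named, and for likeness the 2 genes with the highest r, of which 1 is not reported here for Myh7b. Where fewer passed, those were named. The genes and lists were chosen with earlier results of these data known. Alternatives were RLE scaling, other filters, DESeq2 1.42.0, limma-voom and limma-trend on log2(TPM + 1) and log2(TPM + 0.1) (limma 3.58.1), RSEM counts, unstranded counts, a length and GC trend, a covariate, a replicate block and leaving out libraries. Chosen after seeing the data were leaving out the 4 DM2 libraries (fold changes, shares and gene lists) and computing shares from reads over full transcript length.

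Replicate numbers in the labels are shared by the groups, with no word on what they mark. Deviations of same-numbered libraries correlated above 0.1 in all 3 pairs for 5 of 8 pairs of groups, among them ERK3-depleted and control cells at DM2 (0.108 to 0.205), but not for MK5-depleted and control cells at DM2 (0.0553 to 0.165). Counting error and replicate spread both limit genes with few reads, such as Myh2, Myh4 and Myh7b.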

Additional observations from a re-analysis of the deposited data

Results flagged for a closer look

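The rise of Myh3 and Myh1 at DM2 over GM differed between the ERK3-depleted and control lines in the test of the difference itself. The difference was -1.88 for Myh3 and -1.31 for Myh1 on the log2 scale (edgeR adjusted p = 0.022 and 0.0405), with 3 libraries in each of the 4 groups. They were flagged because they were called, as 2 of 7 members, where 28.6% of all genes were called. When single libraries were left out in turn, the values ran between -2.24 and -1.51 for Myh3 (adjusted p = 0.00841 to 0.0688) and between -1.72 and -1.05 for Myh1 (0.019 to 0.123), so the direction held and the call did not. Both calls also ended with the outside-gene share of reads as a covariate and without the 4 DM2 libraries, as given above.

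Myhas, an antisense gene that overlaps Myh1 and lies in no comparison above, had reads in the depleted lines above the level in control. It had 26, 13 and 14 reads in ERK3-depleted DM2 libraries (53 in all) and 23, 10 and 8 reads in MK5-depleted DM2 libraries (41 in all), against 6, 5 and 5 reads in control DM2 libraries (16 in all). In GM it had 2 reads over 3 ERK3-depleted libraries, 0 over 3 MK5-depleted libraries and 2 over 3 control libraries. All depleted DM2 libraries were above the control DM2 libraries. Myhas was singled out by these reads and passed the filter on low counts through depleted DM2 libraries, so no test of the difference is given. Sense reads of Myh1 numbered 383 to 652 in ERK3-depleted, 324 to 737 in MK5-depleted and 721 to 858 in control DM2 libraries. Myh3, with no annotated antisense gene, also had opposite-strand reads at DM2. These were 673 beside 13943 sense reads in ERK3-depleted, 1181 beside 19342 in MK5-depleted and 1360 beside 26197 in control cells. The unstranded shortfall of Myh1, given above, was also largest in depleted libraries. The part of such opposite-strand reads of Myh1 in the Myhas counts was not tested.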

How the results depend on the processing

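Of 919 alternative values of the 44 member fold changes reported, 829 kept direction and side of the threshold, 47 lost the call, 34 gained one and 9 changed sign; of 210 alternative isoform share differences 196 moved by less than the replicate spread. Members called at DM2 over GM were 3 in every line with limma-trend on either log2 TPM scale, where only 3 members could be tested. In GM, ERK3 against control gave 3 members with no filter, 2 with DESeq2, and 1 each with only the libraries compared, with the covariate and without the 4 DM2 libraries; MK5 against control gave 1 with no filter. At DM2, ERK3 against control gave 5 with no filter; MK5 against control gave 5 with no filter, 4 with the length and GC trend removed, and 1 with the 1 CPM filter and with either limma-trend scale; the depleted lines against each other gave 1 with no filter. The ERK3 response minus that of control gave 1 member with the length and GC trend removed or with limma-voom, and 0 with the covariate, under an adjusted p of 0.01 and without the 4 libraries; the MK5 response gave 1 with no filter. With 1 library left out in turn the counts ran 0 to 2 for the ERK3 response, 5 to 7 for ERK3-depleted and 6 to 7 for MK5-depleted DM2 over GM, 2 to 3 for both depleted lines against control at DM2, 7 in control DM2 over GM and 0 elsewhere. Signs changed for ERK3 against control at DM2 with the covariate (Myh3 0.24, Myh1 0.34, Myh4 0.32), and for MK5 against control at DM2 in Myh7 with unstranded counts (-0.026), in Myh4 with the covariate (0.028) and, with a library left out, without control DM2 replicate 1 (range -0.61 to 0.039), and without the 4 libraries in Myh3 (0.25), Myh1 (0.028) and Myh4 (0.10); none of these values was called, and the cause was not tested. With a replicate block, MK5 against control at DM2 also called Myh1 (-0.53, adjusted p = 0.0402; 3 members), ERK3-depleted DM2 over GM lost Myh2 (adjusted p = 0.055; 5 members), and no other member call changed. All genes called moved by over 1.5 times as follows. The depleted lines at DM2 differed in 0 genes, but in 213 with DESeq2, 368 with the replicate block, 1331 with no filter, 1 to 3 with the length and GC trend removed, limma-voom or the 4 libraries left out, and 3597 without ERK3-depleted DM2 replicate 3. ERK3 against control at DM2 gave 7776, against 2705 with the covariate and 3651 without the 4 libraries; ERK3-depleted DM2 over GM gave 7680, against 3720 and 4721 under the same settings. The ERK3 response gave 3983, against 200 with the covariate, 641 without the 4 libraries, 5977 with limma-trend on log2(TPM + 1) and 2459 to 5835 with a library left out. The MK5 response gave 2512, against 3870 with only the libraries compared, 1062 with the length and GC trend removed and 879 to 3008 with a library left out. In GM, ERK3 against control gave 946, against 1905 with the block, 1482 with no filter, 1508 with DESeq2, 1668 with the covariate, 2036 without the 4 libraries, 580 with the length and GC trend removed, 36 and 0 with limma-trend, and 0 without ERK3-depleted replicate 1 or control replicate 2. MK5 against control in GM gave 1178, against 2045 with the block, 1869 with the covariate, 1965 without the 4 libraries, 168 and 126 with limma-trend, and 42 without control replicate 2. Depth limits Myh2, Myh4, Myh8 and Myh7b, which had at most 14 reads in a GM library.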
